A study of Mus musculus with 15 samples.

Results

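The proteins of the BCL2 family decide whether the outer membrane of a mitochondrion stays closed, and their transcripts were followed here in islets of Langerhans, the endocrine cell clusters of the pancreas. The 9 members were all rows of the deposited table that carried the name of a chosen family gene, out of 48709 genes. They fell into 3 guardians (Bcl2, Bcl2l1 and Mcl1), 2 effectors (Bax and Bak1) and 4 BH3-only genes (Bbc3, Bcl2l11, Pmaip1 and Bid). Islets came from untreated NOD (NOD/ShiLtJ) females, a strain in which autoimmune attack on beta cells leads to diabetes, at 4, 6, 8, 10 and 12 weeks of age with 3 mice at each age and 15 in all. No strain without autoimmunity was part of the series, so ageing and the course of disease cannot be told apart. Islets were freed by collagenase, separated on a density gradient and picked by hand, so each sample held endocrine cells together with the leukocytes and stroma attached to them. Transcripts of acinar cells, which surround the islets, were present in every sample as well. Polyadenylated RNA was sequenced, and the table gave whole-number counts of reads per gene.

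Guardians hold the effectors inactive in healthy cells. BH3-only proteins are made or activated under stress, loss of survival signals or cytokine exposure, and they block the guardians or trigger the effectors directly. Active BAX and BAK then form pores in the outer mitochondrial membrane, cytochrome c escapes, and the APAF1 apoptosome activates caspases. Death receptors such as FAS reach the same step through caspase-8, which cleaves BID. In pancreatic beta cells this pathway is one route of death under inflammatory cytokines, and lymphocytes depend on BCL2, MCL1 and BIM for their survival and removal. The activity of these proteins is set largely by binding, cleavage and turnover, which transcript counts do not show.

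The stretches just upstream of the transcription start are shown for a member of each class, Mcl1 for the guardians, Bax for the effectors and Bid for the BH3-only genes, because these 3 passed the test between 12 and 4 weeks and moved in different directions or by different amounts. The sequences come from RefSeq on GRCm38.p6, read 5′ to 3′ in the direction of the gene, and capitals mark the GC box, the letters GGGCGG on either strand. The Mcl1 stretch lies at chr3:95658471-95658720 on the plus strand, that of Bax at chr7:45466899-45467148 on the minus strand, and that of Bid at chr6:120916854-120917074 on the minus strand, where 29 bases that overlap annotated exons were left off.
Mcl1: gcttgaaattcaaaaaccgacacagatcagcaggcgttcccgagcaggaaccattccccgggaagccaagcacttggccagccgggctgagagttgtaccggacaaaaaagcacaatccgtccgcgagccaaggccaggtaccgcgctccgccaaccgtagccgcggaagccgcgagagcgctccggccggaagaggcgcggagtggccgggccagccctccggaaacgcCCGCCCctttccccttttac
Bax: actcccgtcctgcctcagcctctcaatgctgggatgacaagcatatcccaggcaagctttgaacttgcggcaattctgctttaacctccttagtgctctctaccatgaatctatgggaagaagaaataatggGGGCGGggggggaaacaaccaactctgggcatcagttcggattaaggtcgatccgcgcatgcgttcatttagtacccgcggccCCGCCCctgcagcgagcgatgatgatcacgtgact
Bid: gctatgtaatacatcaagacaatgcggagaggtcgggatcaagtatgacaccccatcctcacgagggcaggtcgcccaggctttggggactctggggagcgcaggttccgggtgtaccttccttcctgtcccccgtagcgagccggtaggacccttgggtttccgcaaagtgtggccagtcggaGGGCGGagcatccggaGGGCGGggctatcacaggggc
The Mcl1 stretch of 250 bases holds 1 GC box, the Bax stretch of 250 bases holds 2, and the Bid stretch of 221 bases holds 2. RefSeq start sites were matched for 8 of the 9 members, all but Pmaip1, and gave 13 windows of 250 bases because Bcl2l1, Bbc3 and Bcl2l11 have several starts. A GC box was present in 9 of these 13 windows, from 6 of the 8 genes, against 32.7% of all 32851 mouse windows of that length, exon bases included. Bcl2 and 1 of the Bbc3 windows had the most, with 7 matches each, while the windows of Bcl2l1 and Bak1 had 0. None of the 13 windows held TTCNNNGAA, a STAT-type motif found in 7.02% of all windows, GAAANNGAA, part of the interferon response motif found in 7.13%, or TGACGTCA, the cAMP response element found in 1.55%. All motifs were searched on both strands. These are matches of letters in a short window and no measure of binding.

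Total counts per sample ran from 25407492 to 41616275 with a median of 28004882, and 3 counts corresponded to 0.0754 to 0.128 CPM (a count relative to its library total, corrected by TMM). A low-count filter kept 16554 genes, among them all 9 members, whose lowest single value was 10 counts for Pmaip1. Mice of the same age differed by more than read sampling gives, the chi-square over its degrees of freedom being 15.9 to 127 for pairs of replicates. All 8 beta cell markers, Ins1, Ins2 and Pdx1 among them, were present in every group, and their summed level fell from 239000 to 267000 CPM at 4 weeks to 122000 to 154000 CPM at 12 weeks. All 22 leukocyte markers tested (8 of T cells, 6 of B cells, 7 of myeloid cells and Ptprc) rose between 4 and 12 weeks, and their summed level went from 93.5 to 316 CPM at 4 weeks to 2250 to 2630 CPM at 12 weeks. All 7 mesenchymal markers also rose, while 0 of 8 acinar markers were called. The summed acinar level varied widely between mice of 1 age, from 1400 to 11600 CPM at 4 weeks, 2130 to 16400 CPM at 10 weeks and 3480 to 13800 CPM at 12 weeks. The lack of acinar calls thus does not show a steady acinar content. In bulk RNA of this kind, fewer cells of a type and less RNA per cell cannot be told apart. At 8 weeks the mice stood apart from each other, with a leukocyte marker mean of 2.11 log2 CPM in mouse 1 against 4.18 in mouse 2 and 4.79 in mouse 3. On this scale the mice of 4 weeks (-0.23 to 2.21) and of 6 weeks (0.28 to 2.73) were spread nearly as widely.

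Between 4 and 12 weeks, 6 of the 9 members rose (Bcl2, Mcl1, Bak1, Bcl2l11, Pmaip1 and Bid) and Bax fell, at an adjusted p under 0.05 in edgeR's quasi-likelihood test. Pmaip1 changed by the most of the 9, from a mean of 1.07 to 17.7 CPM. Bcl2l1 and Bbc3 did not pass the test. Across all genes tested, 53.5% were called in this comparison, 26.3% higher and 27.2% lower, so 7 of 9 members called is to be read against a background in which most genes moved. The median log2 fold change was 0.94 over the 9 members and -0.05 over all genes. The groups of 3 mice did not overlap for 8 members, all but Bbc3, against 64.2% of all genes. At a fold change of 1.5 and an unadjusted p under 0.05, the study's threshold if its p was not adjusted, Bcl2, Mcl1, Bak1, Pmaip1 and Bid were called, 5 of 9 members against 31.9% of all genes. Over the 5 ages jointly, 7 members differed between ages, against 56% of all genes, and the 2 that did not were again Bcl2l1 (adjusted p = 0.159) and Bbc3 (adjusted p = 0.0594). The fall of Bax depended on the scaling, as given with its values, and so did the direction of the calls over all genes. Scaled by library totals in place of TMM, the median of all genes moved up by 0.245 on the log2 scale, and 78.3% of the calls were higher in place of 49.2%.

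**Figure D1:**
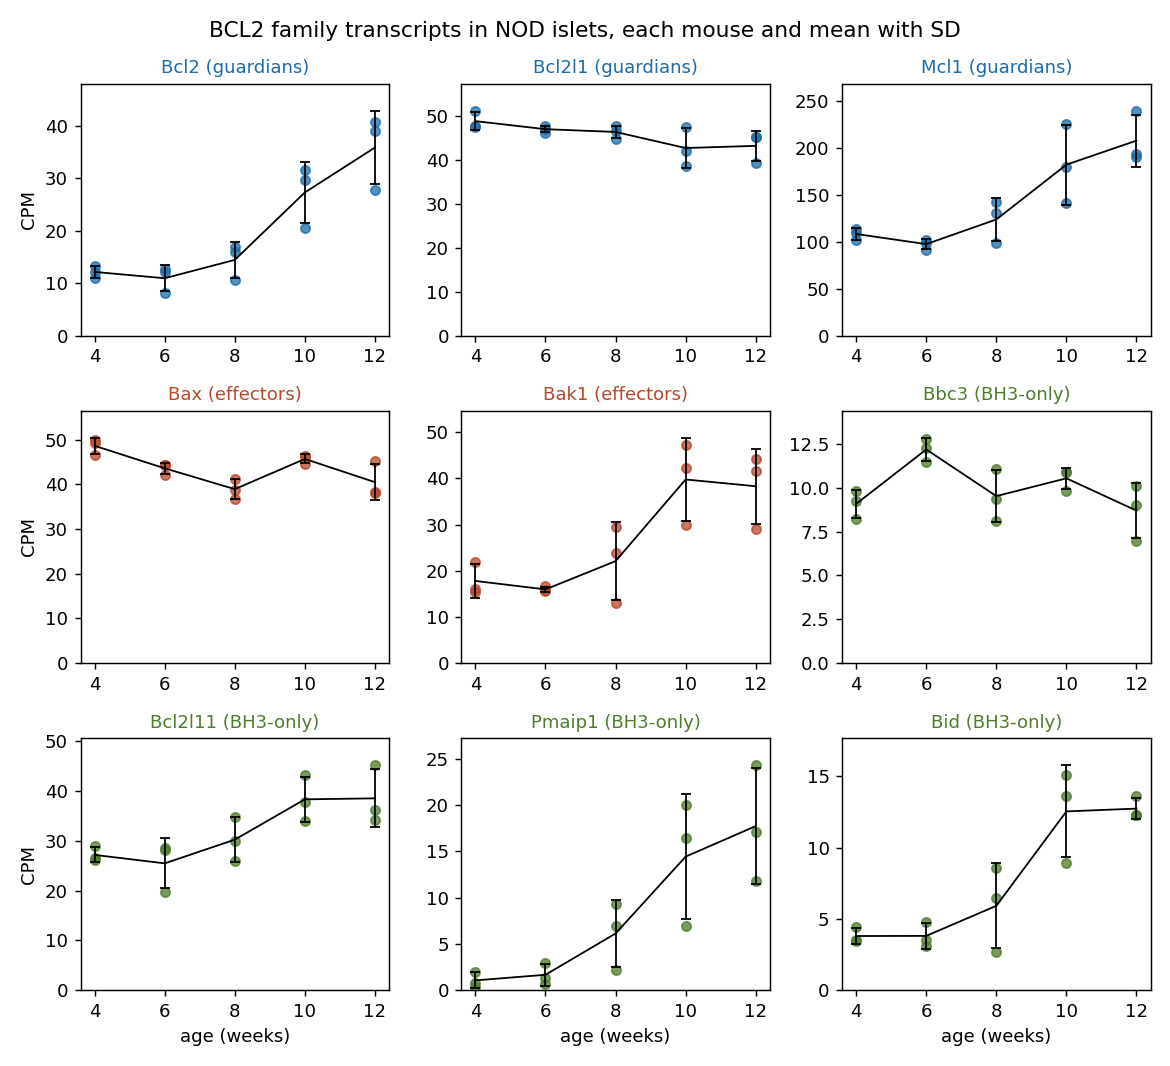
CPM of each of the 9 members (vertical axis, from 0) against age in weeks, with a point for each mouse and a black line through the mean of 3 mice with SD. Bcl2, Mcl1, Bak1, Bcl2l11, Pmaip1 and Bid lie higher at 10 and 12 weeks than at 4 and 6 weeks, whereas Bcl2l1, Bax and Bbc3 show no such rise, and Bbc3 is highest at 6 weeks.

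Among the guardians, Bcl2 and Mcl1 rose and Bcl2l1 did not pass the test. Bcl2 (chromosome 1, 106538178 to 106714274 on the minus strand, GRCm38), the founding anti-apoptotic gene and a survival factor of mature lymphocytes, was measured at 13.2, 12.2 and 11.0 CPM in the 3 mice of 4 weeks and at 12.6, 8.08 and 12.1 CPM at 6 weeks. It stood at 10.5, 15.9 and 16.9 CPM at 8 weeks and at 31.6, 29.7 and 20.6 CPM at 10 weeks. At 12 weeks it reached 27.8, 40.8 and 39.0 CPM. The mice of 10 and 12 weeks all lay above every mouse of 4, 6 and 8 weeks. The log2 fold change of Bcl2 from 4 to 12 weeks was 1.56 (SE 0.232, adjusted p = 0.000348), a 2.96-fold rise.

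Mcl1 (chromosome 3, 95658788 to 95663176, plus strand) encodes a guardian with a short half-life that is needed for lymphocyte survival. Its level was 114, 109 and 102 CPM at 4 weeks, 98.9, 91.7 and 102 CPM at 6 weeks and 98.6, 142 and 131 CPM at 8 weeks. It then stood at 226, 180 and 141 CPM at 10 weeks and at 190, 194 and 240 CPM at 12 weeks. All 3 mice of 12 weeks exceeded all mice of 4, 6 and 8 weeks, while mouse 3 of 10 weeks lay just below the highest mouse of 8 weeks. From 4 to 12 weeks the log2 fold change was 0.94 (SE 0.163, adjusted p = 0.00068), or 1.92-fold.

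Bcl2l1 (chromosome 2, 152780668 to 152831728, minus strand), the gene of BCL-XL, was nearly level. It was measured at 51.3, 47.6 and 47.8 CPM at 4 weeks, and at 39.4, 45.2 and 45.2 CPM at 12 weeks, with 38.7 to 47.8 CPM over the 9 mice between. The 12-week mice all lay below the 4-week mice, yet the log2 fold change of -0.18 (95% interval -0.34 to -0.01) had an adjusted p of 0.0668, and it was 0.07 when scaled by library totals. The call turned on the fit's other mice, since the adjusted p was 0.0426 without mouse 1 of 10 weeks and 0.0308 without mouse 3 of 10 weeks.

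The effectors parted. Bak1 (chromosome 17, 27019810 to 27029009, minus strand) rose, with 21.9, 16.1 and 15.3 CPM at 4 weeks, 15.5, 15.7 and 16.6 CPM at 6 weeks and 12.9, 23.8 and 29.5 CPM at 8 weeks. It stood at 47.3, 42.2 and 29.8 CPM at 10 weeks and at 44.3, 29.1 and 41.5 CPM at 12 weeks. Mouse 1 of 8 weeks had the lowest value of all 15 mice, and the other two of that age lay above every younger mouse. The log2 fold change of Bak1 from 4 to 12 weeks was 1.11 (SE 0.269, adjusted p = 0.00434), or 2.16-fold. Its whole span of 9200 bases overlaps Ggnbp1 on the opposite strand, which had 4213 counts in all samples against 12080 for Bak1. The sources used here do not state whether counting used strand, and without it reads of these genes cannot be told apart.

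Bax (chromosome 7, 45461697 to 45466898, minus strand) moved little and in both directions. It was measured at 46.6, 49.3 and 49.9 CPM at 4 weeks, 44.3, 44.3 and 42.1 CPM at 6 weeks and 38.7, 36.8 and 41.2 CPM at 8 weeks. It came back to 46.2, 46.3 and 44.5 CPM at 10 weeks and lay at 45.1, 38.0 and 38.3 CPM at 12 weeks. The 3 mice of 12 weeks were all below the 3 mice of 4 weeks, mouse 1 by little. The log2 fold change was -0.26 (SE 0.0706, adjusted p = 0.00744), or 0.833-fold. Scaled by library totals the same difference was -0.02 with an adjusted p of 0.851, so the size of this fall is within what the choice of scaling moves. It also lost its call in a fit of both ages alone (adjusted p = 0.0737) and in the edgeR exact test (adjusted p = 0.116).

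Of the BH3-only genes, 3 rose and Bbc3 did not. Pmaip1 (chromosome 18, 66458604 to 66465550, plus strand) encodes NOXA, which binds MCL1 and is induced by p53 and by interferon. It was near the lower end of measurable values in young mice, with 2.02, 0.812 and 0.362 CPM at 4 weeks and 0.713, 1.34 and 2.96 CPM at 6 weeks. It stood at 2.15, 6.92 and 9.32 CPM at 8 weeks and at 20, 16.4 and 6.91 CPM at 10 weeks. At 12 weeks it was 17.1, 11.8 and 24.3 CPM. Every mouse of 10 and 12 weeks lay above every mouse of 4 and 6 weeks, and mice of 1 age differed by up to several-fold. The log2 fold change from 4 to 12 weeks was 4.05 (SE 0.726, adjusted p = 8e-04), a 16.6-fold rise from a base of 10 to 54 counts per mouse, and 30.5-fold without mouse 1 of 4 weeks.

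Bid (chromosome 6, 120891930 to 120916853, minus strand), the BH3-only gene cut by caspase-8 and granzyme B, stood at 4.45, 3.51 and 3.44 CPM at 4 weeks and at 3.49, 3.13 and 4.81 CPM at 6 weeks. It was 2.70, 6.49 and 8.57 CPM at 8 weeks, 15.1, 13.6 and 8.91 CPM at 10 weeks and 12.3, 12.3 and 13.6 CPM at 12 weeks. All mice of 10 and 12 weeks lay above all younger mice. Between 4 and 12 weeks Bid rose by a log2 fold change of 1.74 (SE 0.337, adjusted p = 0.0012), or 3.35-fold. Bid shares 913 bases with Bcl2l13 on the opposite strand, a gene with 28861 counts against 3529 for Bid, and whether counting used strand is not stated. Bcl2l13 itself was at -0.30 on the log2 scale, but at -0.05 and not called with library totals. Whether its reads entered the count of Bid was not tested.

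Bcl2l11 (chromosome 2, 128126038 to 128162547, plus strand), the gene of BIM, which removes self-reactive lymphocytes and acts in cytokine-treated beta cells, rose less. Its values were 28.9, 26.6 and 26.1 CPM at 4 weeks, 19.7, 28.6 and 28.2 CPM at 6 weeks and 25.9, 30.0 and 34.9 CPM at 8 weeks. They were 43.2, 37.8 and 34.1 CPM at 10 weeks and 34.2, 36.3 and 45.2 CPM at 12 weeks. The 12-week mice all exceeded the 4-week mice, and the log2 fold change was 0.51 (SE 0.157, adjusted p = 0.0162), or 1.42-fold. This call rested on single mice, with an adjusted p of 0.0556 without mouse 3 of 4 weeks and 0.0816 without mouse 3 of 12 weeks.

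Bbc3 (chromosome 7, 16308393 to 16318205, plus strand), the gene of PUMA and a p53 target, stood at 8.23, 9.23 and 9.81 CPM at 4 weeks and at 10.1, 9.03 and 6.98 CPM at 12 weeks. At 6 weeks it was highest, with 11.5, 12.3 and 12.8 CPM. The groups of 4 and 12 weeks overlapped, and the log2 fold change of -0.06 had a 95% interval of -0.38 to 0.25 (adjusted p = 0.746), while library totals gave 0.18.

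**Figure D2:**
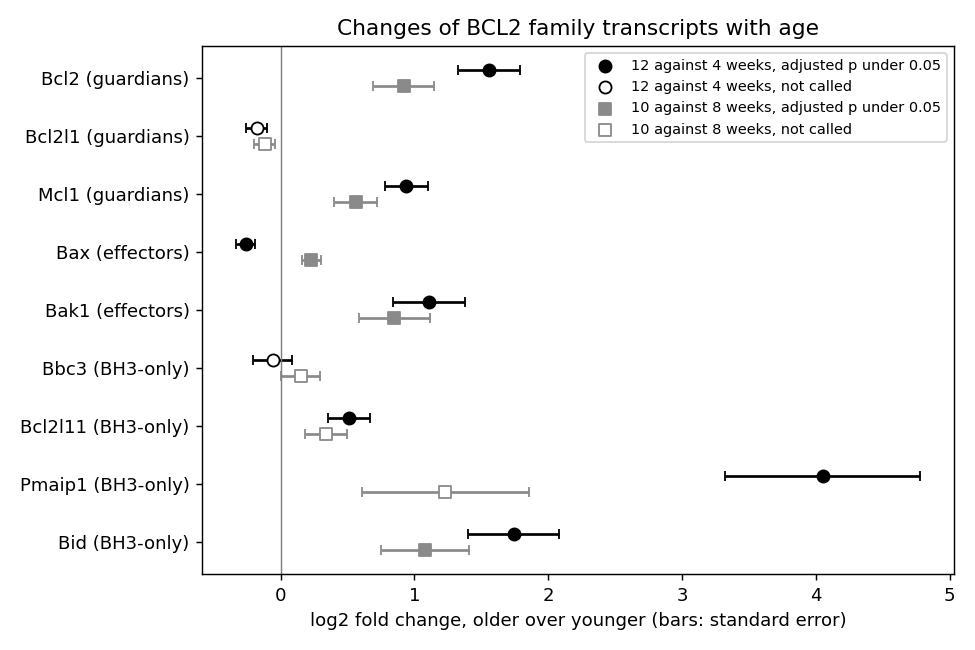
Log2 fold change of each member (horizontal axis, older over younger) with its standard error, for 12 against 4 weeks (circles) and 10 against 8 weeks (squares). Filled symbols passed an adjusted p of 0.05. Pmaip1 has the largest value at 12 against 4 weeks (4.05) with the widest error, and Bax lies on opposite sides of 0 in the 2 comparisons.

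Among the steps between consecutive ages, members passed an adjusted p of 0.05 in that from 8 to 10 weeks alone. There 5 members were called, all of them higher, against 16.8% of all genes (8.4% higher and 8.37% lower). They were Bcl2 (log2 fold change 0.92, adjusted p = 0.0286), Mcl1 (0.56, adjusted p = 0.038), Bax (0.23, adjusted p = 0.0446), Bak1 (0.85, adjusted p = 0.047) and Bid (1.08, adjusted p = 0.0433) in edgeR. Pmaip1 had the largest difference, 1.23, but also the largest error (SE 0.625, adjusted p = 0.163), and mouse 3 of 10 weeks overlapped the 8-week mice. The median log2 fold change was 0.56 over the members and -0.01 over all genes. By the study's threshold Bcl2, Bak1 and Bid were called, 3 of 9, against 13.9% of all genes. In edgeR these calls lay close to the threshold. DESeq2 called the same 5 members, at adjusted p from 0.00156 to 0.0124, against 24.7% of all genes. With library totals, with DESeq2's size factors and without mouse 3 of 8 weeks, 5 members were also called, against 14, 16.7 and 20.2% of all genes. They numbered 0 in a fit of both ages alone, in the edgeR exact test, and without mouse 1 or mouse 2 of 8 weeks or mouse 1 or mouse 2 of 10 weeks, and 6 without mouse 3 of 10 weeks, where 33.3% of all genes were called. The edgeR exact test called 148 of all genes. In the fit of both ages alone and without each of those 4 mice, 0 of all genes were called as well. Leaving out any mouse of 4 or 6 weeks, or mouse 1 or mouse 3 of 12 weeks, left 1 to 3 members called, against 10.5 to 13.8% of all genes. Mouse 1 of 8 weeks was the one with few leukocyte transcripts, and mouse 3 of 10 weeks had the lowest leukocyte marker mean of its age (4.98 log2 CPM). Library totals shifted the median of all genes in this step by 0.109 and gave 78.9% of calls higher in place of 50.1%.

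In the other steps, with all mice, no member passed an adjusted p of 0.05 in edgeR, in DESeq2 or in the edgeR exact test. From 4 to 6 weeks 0 of 9 were called against 0.0906% of all genes, and 0 at the study's threshold against 2.9%. An unadjusted p under 0.05 was reached by 2 members, Bax (-0.16) and Bbc3 (0.42), against 8.67% of all genes. From 6 to 8 weeks 0 members were called against 0% of all genes in edgeR, 1.03% in its exact test and 3.28% in DESeq2. Without mouse 1 of 8 weeks, 4.72% of all genes were called in edgeR, and Bid among the members (0.99, adjusted p = 0.0423). With all mice, Pmaip1 alone passed the study's threshold (1.88), against 9.82%. An unadjusted p under 0.05 was reached by 3 members, Bax (-0.16), Bbc3 (-0.35) and Pmaip1, against 18% of all genes. From 10 to 12 weeks 0 members were called against 0% of all genes, and 0 at the study's threshold against 2.17%. An unadjusted p under 0.05 was reached by Bax (-0.17) only, against 7.52%. The median over the members was -0.09, 0.35 and 0.02 in these 3 steps, and that over all genes 0.01, -0.01 and 0.

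As classes, the guardians, effectors and BH3-only genes all had higher means at 12 than at 4 weeks. The mean log2 CPM of the 3 guardians was 5.33 ± 0.09 (SD, n = 3 mice) at 4 weeks and 6.09 ± 0.18 at 12 weeks. That of the 2 effectors was 4.87 ± 0.11 and 5.29 ± 0.21, which averages the rise of Bak1 with the fall of Bax. That of the 4 BH3-only genes was 2.45 ± 0.32 and 4.04 ± 0.14, a difference of 1.59 that came down to 0.72 with Pmaip1 left out, close to the 0.76 of the guardians. The distance of the BH3-only mean from the guardian mean narrowed from -2.88 ± 0.23 at 4 weeks to -2.19 ± 0.36 at 8 weeks and -2.05 ± 0.21 at 12 weeks, with -1.88 ± 0.17 at 10 weeks. With Pmaip1 left out, the 4-week and 12-week distances were -2.03 ± 0.05 and -2.07 ± 0.18, and no narrowing remained between these ages. No test was made on these means, because the members were chosen with results in view.

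Levels of different genes were compared as TPM, the length-normalised level deposited by the authors, in which reads are divided by gene length and scaled to a common total. Mcl1 had the highest mean at every age, 61.0 ± 5.15 TPM (SD, n = 3) at 4 weeks and 154 ± 30.9 TPM at 12 weeks, and Bax was second, at 59.2 ± 1.17 and 64.4 ± 5.05 TPM. At 4, 6 and 8 weeks the ranges of these genes overlapped, and at 10 and 12 weeks they did not. Bcl2l1 came next at 4 weeks (20.5 ± 1.68 TPM) and was passed by Bak1 at 10 and 12 weeks (40.1 ± 9.20 TPM at 12 weeks against 23.8 ± 2.98 for Bcl2l1). Pmaip1 was lowest at 4 weeks (0.787 ± 0.662 TPM) and had the fifth highest mean at 12 weeks (17.1 ± 7.08 TPM), where its range overlapped that of its lower neighbour Bcl2l11 (12.2 ± 2.65 TPM). Among Bcl2l11, Bbc3, Bcl2 and Bid at 12 weeks, means of 9.05 to 12.2 TPM followed each other with overlapping ranges. TPM is not corrected for composition as the CPM values are, and the means of Bax and Bcl2l1 were higher at 12 than at 4 weeks in TPM but lower in CPM.

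**Figure D3:**
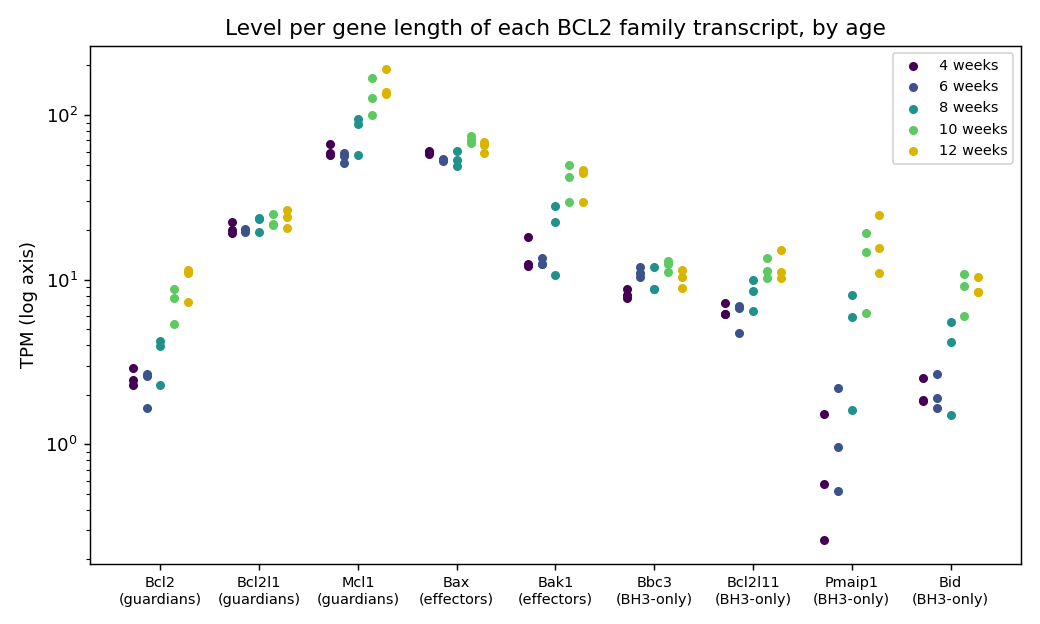
TPM of each member in each mouse on a log axis, coloured by age. Mcl1 is the highest at 12 weeks, Bax and Bcl2l1 change little, and Pmaip1 covers the widest range, with a mean of 0.787 TPM at 4 weeks and 17.1 TPM at 12 weeks.

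Ratios within a sample do not depend on the scaling between samples, but they do depend on its mix of cells. Leukocyte markers rose and beta cell markers fell over these ages, and the part of this change in the ratios was not tested. Bax exceeded Bcl2 by 20.5 to 26.5 times in TPM at 4 weeks, by 13.4 to 21.5 times at 8 weeks and by 5.41 to 9.43 times at 12 weeks, without overlap between 4 and 12 weeks. The ratio of Bcl2l1 to Bcl2 fell from 7.76 to 8.71 at 4 weeks to 2.21 to 2.83 at 12 weeks, without overlap. Mcl1 stood at 2.87 to 3.07 times Bcl2l1 at 4 weeks and at 5.75 to 7.12 times at 12 weeks. Between the effectors, Bak1 was 0.200 to 0.308 of Bax at 4 weeks and 0.502 to 0.710 at 12 weeks. Mcl1 exceeded Pmaip1, whose protein binds it, by 43.7 to 219 times at 4 weeks and by 7.63 to 12.7 times at 12 weeks. Within the p53-linked BH3-only genes, Bbc3 was 5.08 to 33.8 times Pmaip1 at 4 weeks and 0.357 to 0.953 of it at 12 weeks.

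Leukocyte content differed between mice of the same age, which allowed a member's level to be set against it within ages. The leukocyte marker mean (mean log2 CPM of the 22 markers) was between -0.23 and 2.21 in the mice of 4 weeks and between 0.28 and 2.73 in those of 6 weeks. It was between 2.11 and 4.79 at 8 weeks, between 4.98 and 6.17 at 10 weeks and between 5.83 and 6.15 at 12 weeks. With age in the model, 4 members rose with this mean at an adjusted p under 0.05 in edgeR, against 10.1% of all genes with a positive slope called. Pmaip1 had the steepest slope, 0.91 log2 units per log2 unit of markers (SE 0.086, adjusted p = 5.76e-06), followed by Bid with 0.38 (SE 0.0752, adjusted p = 0.00383), Bak1 with 0.28 (SE 0.0673, adjusted p = 0.0152) and Bcl2l11 with 0.15 (SE 0.0421, adjusted p = 0.0371). The mouse with most leukocyte transcripts also had the most Pmaip1 and the most Bid at all 5 ages. For Mcl1, Bak1 and Bcl2l11 this held at 4 ages, for Bcl2 at 3, for Bcl2l1 and Bbc3 at 2 and for Bax at 1. Bcl2 (0.17, adjusted p = 0.192) and Mcl1 (0.13, adjusted p = 0.12) did not pass, and the slopes of Bcl2l1, Bax and Bbc3 lay between -0.01 and 0, with a median of 0 over all genes. With myeloid markers alone 5 members were called, against 12.6% of all genes called in either direction. Mcl1 was now among them (0.23, adjusted p = 0.0482), and the slopes were 1.45 for Pmaip1, 0.61 for Bid and 0.49 for Bak1. The count of calls turned on mice of 8 weeks. Without mouse 1 of 8 weeks only Pmaip1 was called, with Bid at an adjusted p of 0.0619 and Bak1 at 0.215, while the genes called in either direction fell from 1731 to 1065. Without mouse 3 of 8 weeks 2 members and 1323 genes were called. The slope of Bcl2l11 lost its call without any of 9 of the mice (adjusted p up to 0.157), and that of Bcl2 gained one without mouse 1 of 6 weeks (0.26, adjusted p = 0.0175).

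**Figure D4:**
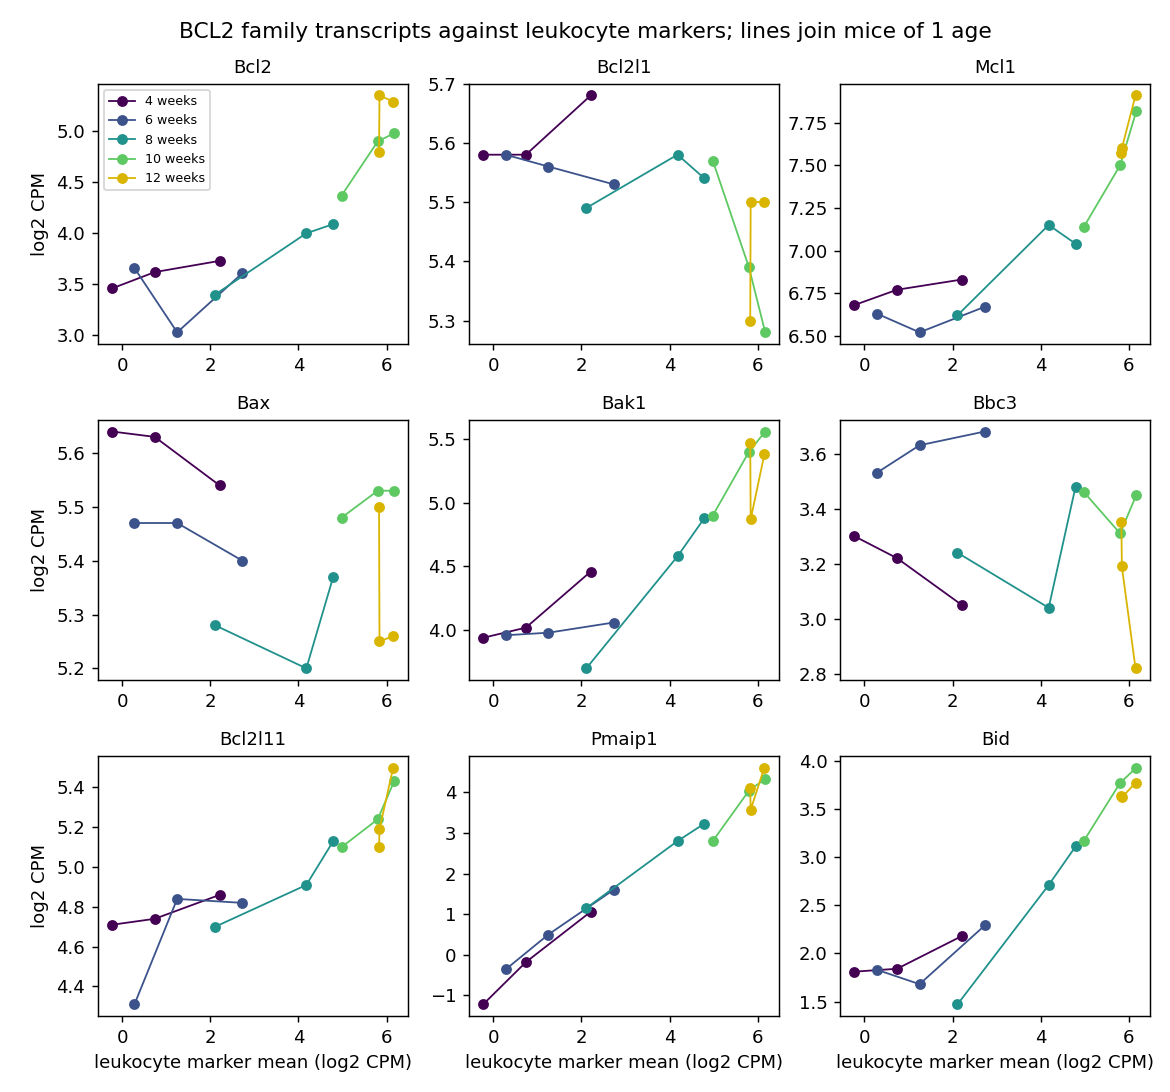
Log2 CPM of each member (vertical axis) against the leukocyte marker mean of the same mouse in log2 CPM (horizontal axis), with mice of 1 age joined by a line. Pmaip1 and Bak1 follow the order of the markers within every age but 12 weeks, and Bcl2l11 within every age but 6 weeks. Bid and Bak1 rise with the markers most clearly at 8 and 10 weeks, and Bax, Bcl2l1 and Bbc3 show no common direction.

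With the leukocyte marker mean as a covariate, 0 of the 9 members differed between 12 and 4 weeks in edgeR, against 0.0121% of all genes (2 of 16554). The fitted differences were 0.71 for Bcl2 (SE 0.415), 0.27 for Mcl1 (SE 0.281) and -0.23 for Pmaip1 (SE 0.46). They were -0.27 for Bak1 (SE 0.379), -0.25 for Bcl2l11 (SE 0.24) and -0.15 for Bid (SE 0.425). Age accounted for 85.7% of the spread of the leukocyte mean over the 15 mice, so age and leukocyte content can hardly be told apart in these mice. Which cells carried the rise of each member was not tested.

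Over the 15 mice, the genes whose log2 CPM ran most closely with each member are given as a description, since the samples share age and composition. Pmaip1 was nearest to Cd300a (Pearson r = 0.994), a leukocyte receptor, Plxnc1 (0.994) and Ikzf1 (0.992), a lymphoid transcription factor. Bid was nearest to Gmfg (0.995), Gm2a (0.992) and H2-T24 (0.991). Bak1 ran with H2-M3 (0.990), Litaf (0.987) and Tap2 (0.986), the last a peptide transporter of antigen presentation. Mcl1 ran with Dock8 (0.994), Helz2 (0.989) and Elf1 (0.988), and Bcl2 with Rasgrp3 (0.978), Sh3bp5 (0.978) and Kctd12 (0.977). Bcl2l11 was nearest to Apol10b (0.954), Itga4 (0.954), an integrin of leukocytes, and Cd300ld (0.948). Bcl2l1 was nearest to Wdr33 (0.894), Myh10 (0.892) and Rasl10b (0.890), Bax to Ppp1r14b (0.928), Mvb12a (0.919) and Prmt1 (0.909), and Bbc3 to Mrpl55 (0.836), Dph7 (0.821) and Eif2b2 (0.807). With the leukocyte marker mean itself, r was 0.99 for Pmaip1, 0.95 for Bid, 0.91 for Bak1, 0.90 for Mcl1 and Bcl2l11 and 0.89 for Bcl2, against -0.24 for Bbc3, -0.41 for Bax and -0.63 for Bcl2l1.

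The rest of the family moved in both directions between 4 and 12 weeks. Of 4 other guardians tested, the A1 genes Bcl2a1a (log2 fold change 3.30), Bcl2a1b (3.10) and Bcl2a1d (3.31) rose, and these near-identical copies share reads, so their separate values are uncertain. Bcl2l2, the gene of BCL-W, fell by 0.69 (adjusted p = 0.000341), from 126 ± 2.86 to 78.1 ± 5.99 CPM (SD, n = 3), and it still fell by 0.45 when scaled by library totals. Of 4 other family genes tested that were listed neither as guardians nor as BH3-only, Bcl2l14 (3.0), Bcl2l12 (1.71) and Bok (0.47) rose and Bcl2l13 (-0.30) fell. The fall of Bcl2l13 was not called with library totals (adjusted p = 0.558). These 4 genes are not all effectors in the sense of Bax and Bak1. Of 6 other BH3-only genes tested, Bmf (1.07, adjusted p = 0.000589) and Bnip3l (0.21) rose, Bnip3 (-0.34) fell, and Bad, Bik and Becn1 were not called. The call of Bnip3 was lost with library totals (adjusted p = 0.457).

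Downstream and upstream of the family, 5 of 7 apoptosome and caspase genes rose, among them Apaf1 (1.06, adjusted p = 0.00119), the apoptosome scaffold, and Casp6 (0.91), and none fell. In the death receptor pathway 8 of 9 genes rose. Fas rose by 2.36 (adjusted p = 0.000401) and Casp8, the caspase that cleaves BID, by 1.37 (adjusted p = 0.000373), while Fadd was not called. Fasl, made by cytotoxic lymphocytes, went from 0.0517 CPM at 4 weeks, below the level of 3 counts, to 1.19 CPM at 12 weeks. Among 7 inhibitors of apoptosis proteins and their antagonists, Birc3 (2.47), Htra2 (0.47) and Birc2 (0.24) rose and 4 were not called. Among 9 p53 and stress regulators, Trib3 (1.02), Trp53 (0.72) and Ddit3 (0.39) rose, and Zmat3 (-0.39) and Mdm2 (-0.17) fell, both falls not called with library totals, where Mdm2 was at 0.07. Over the 46 genes of these lists that were tested, 27 rose, 5 fell and 14 were not called, with a median log2 fold change of 0.37 against -0.05 over all genes. With library totals 31 rose, 1 fell (Bcl2l2) and 14 were not called. Over all genes tested, 26.3% were called higher with TMM, and 6556 of 16554 were called higher with library totals. Part of the genes on these lists, Fasl and the A1 genes among them, are made in leukocytes. The 22 leukocyte markers rose by a median of 4.65 over the same ages. The part of leukocyte content in these changes was not tested.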

How the data were processed

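Islet RNA of 15 NOD females was analysed, grouped by the age in the labels (3 mice per age). The deposited counts are whole reads per gene assigned by the authors in CLC Genomics Workbench, with no normalization. The deposited TPM values, computed by the authors from the same reads, were used only to compare levels between genes. Of the per-sample columns, 30 (RPKM and CPM) were not used. The submitters' processing notes name mm10. Gene positions are those of GRCm38. Whether counting used strand is not given in the sources used here.

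Tests used edgeR 4.0.16 in R 4.3.3 (filterByExpr over the ages, TMM, glmQLFit with 1 mean per age, glmQLFTest, Benjamini-Hochberg over 16554 genes), and 95% intervals came from the same fit. Log2 CPM per mouse used a prior count of 2. For 3 mice against 3 an exact permutation test cannot go below p = 0.1, so none is quoted. Alternatives were DESeq2 1.42.0, its size factors in edgeR, library totals, no filter, the BH3-only class without Pmaip1 (added after seeing the data), both ages alone, the edgeR exact test, each mouse left out, a prior count of 0.5, the replicate number as a block, other leukocyte marker lists and a leukocyte covariate. The mean of 22 of 23 listed leukocyte markers was used. Itgam was not analysed here. Scripts were tested on simulated data, and figures were drawn with matplotlib 3.10.9 in Python 3.11.15.

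The members, gene lists and tests were chosen with earlier results of these data known. Named genes are the 9 members, from each pathway list at most the 3 largest rises and 3 largest falls with an adjusted p under 0.05 at 12 against 4 weeks, and the 3 genes nearest to each member by Pearson r. A gene that falls under this rule is not reported here. Fadd, Bad, Bik and Becn1, list members that were not called, were named after their values were seen.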

Additional observations from a re-analysis of the deposited data

How the results depend on the processing

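Of the 12 against 4 week results, the count of 7 members ranged from 6 to 8 with each mouse left out, against 42.9 to 54.6% of all genes. It ranged from 6 to 7 with other scalings, filters and tests, against 38 to 52.7% of all genes. With the leukocyte covariate it fell to 0, against 0.0121% of all genes. With that covariate the joint count over all ages was 0, against 0.477% of all genes, and the 10 against 8 week count was 0, against 0% of all genes. Under the covariate, estimates at 12 against 4 weeks were below 0 for Bak1 (-0.27, SE 0.379), Bcl2l11 (-0.25, SE 0.24), Pmaip1 (-0.23, SE 0.46) and Bid (-0.15, SE 0.425). That of Pmaip1 at 10 against 8 weeks was -0.39. None of these estimates was called as different from 0. The count of 5 at 10 against 8 weeks became 2 with no filter, against 8.21% of all genes. It was 0 in a fit of both ages alone, against 0%, and 0 in the edgeR exact test, against 0.931%. With each mouse left out it ranged from 0 to 6, against 0 to 33.3% of all genes. The 8 against 6 week count ranged from 0 to 1, the 1 coming without mouse 1 of 8 weeks, where 797 genes were called. The count of slopes ranged from 1 to 4 with each mouse left out, against 6.31 to 11% of all genes called in either direction. Same-numbered mice of different ages did not all deviate together in any comparison (r = 0.026, 0.102 and -0.159 at 12 against 4 weeks, -0.397, 0.089 and -0.437 at 10 against 8, and 0.509, -0.118 and 0.489 at 8 against 6), and the labels tie the numbers to no shared litter or batch. With the number as a replicate block, 7 members were called at 12 against 4 weeks, against 50.3% of all genes. At 10 against 8 weeks 0 were called with the block, against 0% of all genes, and 3 by slope, against 9.24% called in either direction. The slope of Bcl2l1 was then -0.01. With library totals the class differences were 1.01 for guardians (0.76 with TMM) and 0.66 for effectors (0.42 with TMM), Bcl2l1 was at 0.07 and Bbc3 at 0.18 at 12 against 4 weeks, and the slopes of Bax and Bbc3 were 0.02 and 0.03. Leaving out each mouse gave -0.18 to 0.08 for Bbc3 at 12 against 4 weeks, -0.02 to 0.02 for the slope of Bcl2l1 and -0.05 to 0.03 for that of Bbc3. Myeloid markers alone gave 5 slopes, Mcl1 added, and -0.01 for Bcl2l1. Leaving Pmaip1 out of the BH3-only class, an alternative chosen after seeing the data, took its difference from 1.59 to 0.72. The causes of these changes were not tested.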
